A study of Arabidopsis thaliana with 12 samples.

Results

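Transcript levels were compared between seedlings of the Arabidopsis thaliana mutant nup1-1 and of the wild type Col-0, both grown for 5 days on MS medium to which the hormone abscisic acid (ABA) had been added. Of the 33201 rows of the authors' deposited comparison of these groups, 19269 are described here: those marked as tested with a value of at least 1 FPKM (fragments per kilobase of transcript, scaled to the depth of the library) in either group. The series holds 12 samples in 4 groups of 3, Col-0 and nup1-1 each with and without ABA, and the groups without ABA serve below only as a reference for the genotype difference. The groups are whole seedlings of 1 mutant line and its wild type, the ABA dose is not in the labels, and separate sowings of the samples within a group are not stated. The authors' deposited table gives 1 FPKM value per group, so p-values measure a spread between samples that may be technical, and the depth of single libraries is unknown. Group sums of FPKM were 1047280 in Col-0 and 945908 in nup1-1.

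ABA accumulates in maturing seeds and in plants short of water. It binds PYR/PYL receptors, which then inhibit type 2C protein phosphatases and so release SnRK2 kinases that activate bZIP transcription factors such as ABI5. Given to seeds and young seedlings it delays greening and keeps the seed programme on, and ABI5 and the factors ABI3 and ABI4 are needed for that arrest. NUP1 is a plant protein of the nuclear basket, the inner face of the nuclear pore through which mRNA leaves and proteins enter the nucleus. The title of the series ties NUP1 to the pore, the proteasome and ABI5.

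Promoters of a member of each of 4 groups of genes described below are shown first, since short motifs in them were counted for all groups. Each is the stretch of 250 bases before the annotated start of transcription in RefSeq's TAIR10.1 assembly, read 5′ to 3′ on the strand of the gene. Each belongs to the called member with the greatest difference among the members of its list that hold all marked motifs. Capitals mark matches on either strand. M10, a late embryogenesis abundant protein gene (chr2:17209447-17209696, plus strand), and OLEO3, an oleosin gene (chr5:20819818-20820067, plus strand), carry the core of the ABA-responsive element (ACGTG), and OLEO3 also the RY repeat (CATGCA) of seed genes. DRT112, a plastocyanin gene (chr1:7043393-7043642, minus strand), carries the ABA-responsive core and the I-box (GATAAG) of light-regulated genes. BOP1, a ribosome assembly gene (chr2:16856772-16857021, minus strand), carries the telo-box (AAACCCTA) and the site II element (TGGGCC) of genes for ribosomes and growth.
M10: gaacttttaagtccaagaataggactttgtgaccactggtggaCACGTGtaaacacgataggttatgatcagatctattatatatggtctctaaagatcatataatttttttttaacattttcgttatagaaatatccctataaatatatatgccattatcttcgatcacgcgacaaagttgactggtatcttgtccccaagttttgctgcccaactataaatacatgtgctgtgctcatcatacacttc
OLEO3: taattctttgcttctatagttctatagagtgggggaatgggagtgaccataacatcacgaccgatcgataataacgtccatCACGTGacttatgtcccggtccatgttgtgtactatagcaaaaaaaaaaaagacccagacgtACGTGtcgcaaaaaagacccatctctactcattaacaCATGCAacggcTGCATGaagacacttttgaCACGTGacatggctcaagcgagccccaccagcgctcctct
DRT112: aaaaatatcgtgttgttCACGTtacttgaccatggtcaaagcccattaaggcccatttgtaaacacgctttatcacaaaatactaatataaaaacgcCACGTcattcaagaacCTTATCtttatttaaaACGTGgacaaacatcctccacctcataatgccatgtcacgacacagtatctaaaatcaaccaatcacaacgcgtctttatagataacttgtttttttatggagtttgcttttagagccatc
BOP1: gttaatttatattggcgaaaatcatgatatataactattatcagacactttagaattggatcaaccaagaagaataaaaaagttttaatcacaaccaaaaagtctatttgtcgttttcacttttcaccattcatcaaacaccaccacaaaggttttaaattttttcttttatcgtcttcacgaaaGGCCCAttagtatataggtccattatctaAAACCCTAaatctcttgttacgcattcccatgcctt
M10 and OLEO3 belong to lists that were mostly higher in nup1-1, DRT112 to a list that was lower throughout, and BOP1 to a list with smaller increases.

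The genotypes differed widely on ABA. At a q-value (p-value adjusted for the number of genes tested) under 0.05 in the authors' deposited table, 7645 of the 19269 genes (39.7%) differed, 3051 of them (15.8%) higher and 4594 (23.8%) lower in nup1-1. Differences of at least 2-fold were mostly on the lower side: 317 genes (1.65%) were higher and 1535 (7.97%) lower by that much. The log2 ratio, log2 of (FPKM in nup1-1 + 1) over (FPKM in Col-0 + 1), had a median of -0.01, quartiles of -0.38 and 0.25 and a median standard error of 0.16. When both groups were scaled to the same sum of FPKM, which shifts every log2 ratio by 0.15, the split of the calls turned from 39.9% to 58.4% higher, with 5184 genes higher and 3696 lower. Small shared differences are therefore given below with their count under that scaling where it moved by over 1.5 times.

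Unless another q is given, a gene called below had q = 0.000272, the smallest value in the authors' deposited table. FPKM values and q-values are those of that table, and errors are standard errors of the log2 ratio reconstructed from its test statistic. Genes were grouped in 45 lists by process, of which 914 members were measured; 219 were higher and 339 lower in nup1-1. A further 66 listed genes were not measured, 59 of them under the FPKM minimum or not tested, 6 in rows that join neighbouring genes or without a row, and 1 marked as having too many reads.

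**Figure D1:**
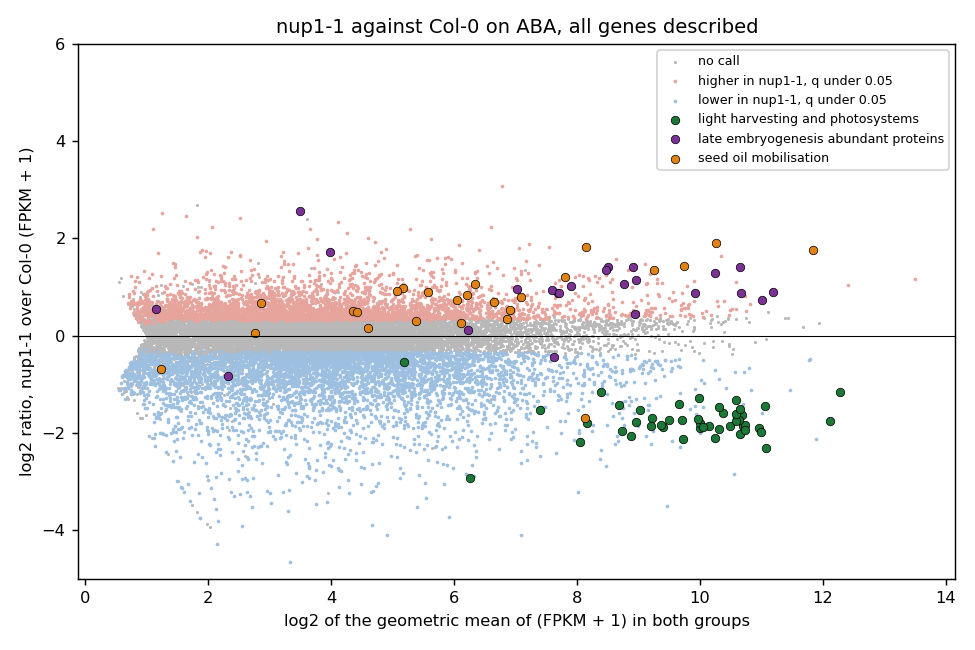
Log2 ratio of nup1-1 over Col-0 on ABA (FPKM + 1) against the log2 geometric mean of both groups, 1 point per gene, grey without a call, red higher and blue lower at q under 0.05. The 47 photosystem genes (green) sit below 0, most late embryogenesis (violet) and oil mobilisation genes (orange) above it; 1 gene, at -8.03, lies outside the axis.

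NUP1 itself (AT3G10650, chromosome 3, 3325170 to 3330892 on TAIR10) had a Col-0 level of 13.8 FPKM and a mutant level of 7.47 FPKM (log2 ratio -0.80 ± 0.13). The transcript was thus lower but still present in the mutant, and a value per gene does not show which part of it the reads cover. ABI5 (AT2G36270, chromosome 2, 15204764 to 15207528) had 37.7 FPKM in Col-0 against 72.9 FPKM in nup1-1 (log2 ratio 0.93 ± 0.15).

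Seed maturation genes did not move as a block. Of 23 measured genes for late embryogenesis abundant (LEA) proteins, hydrophilic proteins made as seeds dry, 20 were higher and 2 lower in nup1-1 (20 and 1 under equal FPKM sums), with a median log2 ratio of 0.94 against -0.01 over all genes described. LEA76 went from 989.9 FPKM in Col-0 to 2625 FPKM in nup1-1 (log2 ratio 1.41 ± 0.20). M10, whose promoter is shown above, had 3.63 and 26.5 FPKM (log2 ratio 2.57 ± 0.24), and AT5G44310 had 221 and 593 FPKM (log2 ratio 1.42 ± 0.17). The 2 lower members were AT3G22500 (log2 ratio -0.83 ± 0.20, q = 0.000743) and M17 (log2 ratio -0.44 ± 0.15, q = 0.0088). In all, LEA transcripts made up 0.937% of the FPKM sum in Col-0 and 2.06% in nup1-1.

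Oleosins and caleosins coat the oil bodies in which seeds store fat. Of 10 measured genes, 8 were higher and 1 lower, with a median log2 ratio of 0.88. OLEO3 rose from 76.1 FPKM in Col-0 to 286 FPKM in nup1-1 (log2 ratio 1.90 ± 0.15). The oleosin gene AT2G25890 had 253 and 571 FPKM (log2 ratio 1.17 ± 0.15). The exception was the caleosin gene ATS1, which fell from 11.4 to 6.15 FPKM (log2 ratio -0.79 ± 0.18).

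Seed storage protein genes, which encode the 12S cruciferins and 2S albumins and related globulins, were split. Of 12 measured, 5 were lower and 2 higher (41.7% and 16.7%, against 23.8% and 15.8% of all genes), with a median log2 ratio of -0.33. The 2S albumin genes SESA2 and SESA5 fell from 39.3 to 5.31 FPKM (log2 ratio -2.67 ± 0.19) and from 50.4 to 7.69 FPKM (log2 ratio -2.56 ± 0.19). The cruciferin gene CRU3 fell from 715 to 237 FPKM (log2 ratio -1.59 ± 0.18). The vicilin-like genes AT2G18540 (log2 ratio 0.83 ± 0.15) and PAP85 (log2 ratio 0.62 ± 0.17, q = 0.00367) were the 2 higher ones. Storage, LEA and oil body genes all carried ABA and seed motifs often: the ABA-responsive core stood in 75% of the promoters of storage genes, 91.3% of LEA and 70.0% of oleosin and caleosin promoters, against 24.3% of the 18575 promoters of all genes described. The RY repeat stood in 83.3%, 21.7% and 100% of them, against 7.84% of all. Lists that were little changed or mostly lower also held the ABA-responsive core often. It stood in 69.2% of endoplasmic reticulum folding, 60.7% of circadian clock and 60% of iron promoters.

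Genes that turn stored oil into sugar were mostly higher. They cover the lipases, peroxisomal beta-oxidation, the glyoxylate cycle and gluconeogenesis. Of 25 measured genes, 19 were higher and 2 lower, with a median log2 ratio of 0.74. The glyoxylate cycle enzyme genes ICL (isocitrate lyase) and MLS (malate synthase) went from 1999 to 6751 FPKM (log2 ratio 1.76 ± 0.34) and from 634 to 2363 FPKM (log2 ratio 1.90 ± 0.23). MFP2, a multifunctional enzyme of beta-oxidation, went from 151 to 534 FPKM (log2 ratio 1.82 ± 0.17). PCK1, which starts gluconeogenesis, had 517 and 1405 FPKM (log2 ratio 1.44 ± 0.21). Lower were PMDH2, a peroxisomal malate dehydrogenase (log2 ratio -1.69 ± 0.16), and the low-level PCK2 (log2 ratio -0.68 ± 0.14). These transcripts together took 0.489% of the FPKM sum in Col-0 and 1.46% in nup1-1. The samples are whole seedlings, so fewer cells of a type and less RNA per cell cannot be told apart, and neither can a change within cells and seedlings that stand at another stage of growth.

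**Figure D2:**
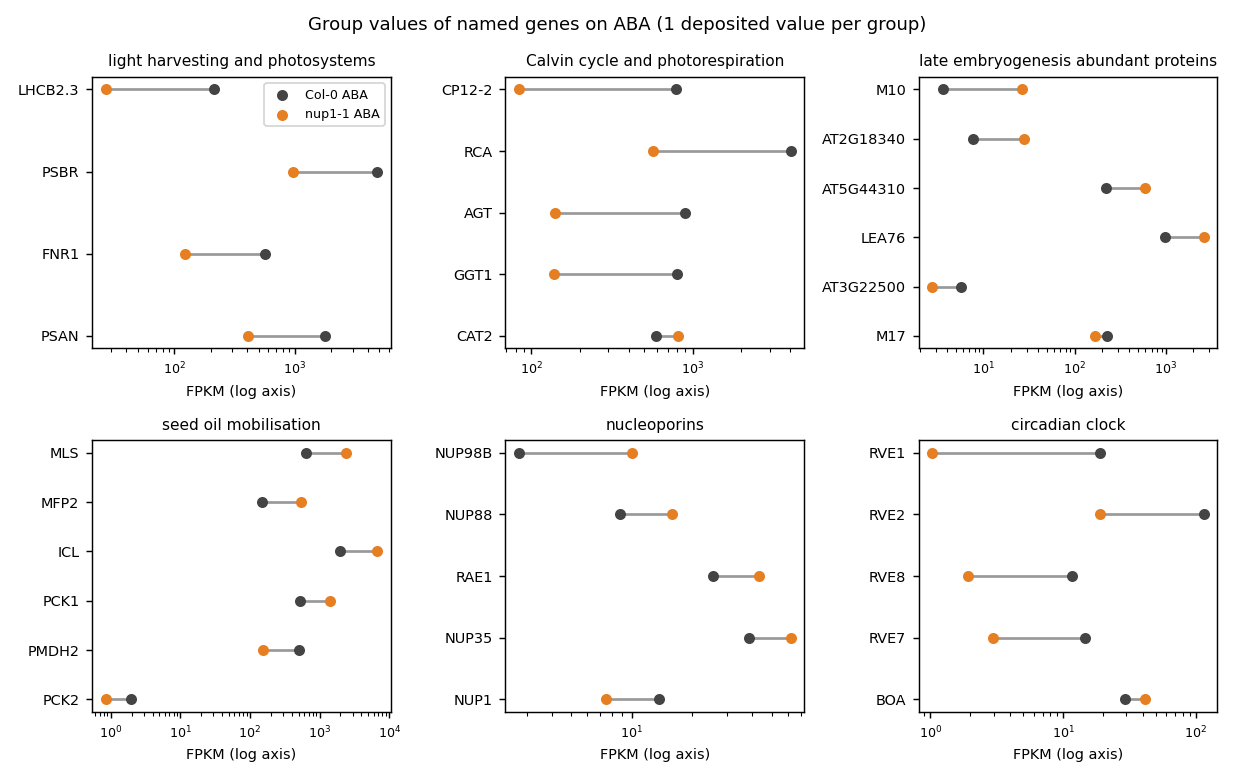
FPKM (log axis) of named genes of 6 lists on ABA, grey points for Col-0 and orange for nup1-1, with a line joining the 2 deposited group values of a gene. CP12-2 lies at 785 and 84.0 FPKM, LEA76 at 989.9 and 2625 FPKM.

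The ABA pathway itself was mixed. Of 25 measured genes for receptors, phosphatases and kinases, 4 were higher and 7 lower, near the shares among all genes. Receptor genes were among those that fell: PYL8 went from 114 to 51.8 FPKM (log2 ratio -1.12 ± 0.15), and PYL7, PYL5 and PYL1 had log2 ratios of -1.33 ± 0.24, -0.84 ± 0.15 and -0.79 ± 0.15. The phosphatase genes AHG1 and HAI3, whose products hold back ABA signalling, rose from 7.16 to 20.4 FPKM (log2 ratio 1.39 ± 0.15) and from 16.7 to 37.2 FPKM (log2 ratio 1.11 ± 0.15). Among 18 measured seed regulators and bZIP factors of the ABI5 group, 5 were higher and 2 lower (8 and 2 under equal FPKM sums). ABI4 and ABI3, transcription factors of seed maturation and of the ABA arrest, rose from 8.24 to 38.7 FPKM (4.69-fold) and from 14.8 to 42.3 FPKM (log2 ratio 1.46 ± 0.14). The bZIP factor gene EEL had a log2 ratio of 0.95 ± 0.16, close to that of ABI5. ABF4, a bZIP factor of vegetative ABA responses, fell from 22.5 to 12.4 FPKM (log2 ratio -0.80 ± 0.15), and the dormancy gene DOG1 from 2.06 to 0.221 FPKM (q = 0.000962).

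Of 12 genes known to control ABI5 turnover, 4 were higher and none lower at q under 0.05. AFP1, an ABI5-binding protein, went from 28.7 to 55.6 FPKM (log2 ratio 0.93 ± 0.17), and the ubiquitin ligase gene KEG from 9.74 to 13.8 FPKM (log2 ratio 0.46 ± 0.13, q = 0.00276). The genes of the 26S proteasome, which degrades ubiquitinated proteins, differed little: 2 of 49 measured subunit genes were higher and none lower, with a median log2 ratio of 0.15 and a range from -0.12 to 0.67. The 2 were RPT5B (log2 ratio 0.67 ± 0.15) and RPN8B (log2 ratio 0.49 ± 0.14, q = 0.00258). Under equal FPKM sums 19 of the 49 were higher, so the proteasome count rests on the scaling.

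Among ABA synthesis, breakdown and transport genes, 3 of 14 were higher and 4 lower (21.4% and 28.6%). These shares are near the 15.8% and 23.8% of all genes. BGLU18, which frees ABA from its glucose ester, fell from 16.9 to 4.42 FPKM (log2 ratio -1.73 ± 0.16), and AAO3, which makes ABA from its aldehyde, rose from 5.00 to 8.41 FPKM (log2 ratio 0.65 ± 0.13). Of 24 dehydration and cold response genes, 4 were higher and 8 lower (16.7% and 33.3%, against 15.8% and 23.8% of all). Genes of the cold response were among the lower. The cold-regulated genes COR15A and COR15B fell from 208 to 63.1 FPKM (log2 ratio -1.70 ± 0.16) and from 94.1 to 17.1 FPKM (log2 ratio -2.39 ± 0.16). RD29A, a classic reporter of ABA and drought, rose from 169 to 402 FPKM (log2 ratio 1.24 ± 0.17), and TSPO, an ABA-induced membrane protein gene, from 284 to 723 FPKM (log2 ratio 1.34 ± 0.16). Of 7 galactinol and raffinose genes, 2 were higher and 1 lower (28.6% and 14.3%, against 15.8% and 23.8% of all), the latter DIN10 at a log2 ratio of -1.33 ± 0.18.

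Photosynthesis genes were lower almost without exception. All 47 measured nuclear genes for light-harvesting proteins, photosystem subunits and electron carriers were lower in nup1-1, 46 of them by at least 2-fold, with log2 ratios from -2.93 to -0.55 and a median of -1.78. Their share of the FPKM sum was 10.01% in Col-0 and 3.36% in nup1-1. LHCB2.3, an antenna protein gene of photosystem II, fell from 212 to 26.9 FPKM (log2 ratio -2.93 ± 0.15). The photosystem subunit genes PSBR and PSAN fell from 4815 to 967 FPKM (log2 ratio -2.32 ± 0.19) and from 1769.9 to 404 FPKM (log2 ratio -2.13 ± 0.17). The plastocyanin gene DRT112 fell from 4057 to 1022 FPKM (log2 ratio -1.99 ± 0.20). The light-harvesting genes include near-identical copies, such as those of the LHCB1 and LHCB2 groups, whose single values depend on how shared reads were assigned. The I-box stood in 27.7% of the photosystem promoters, against 12.3% of all and 15.4% of those of genes lower in nup1-1. Lists with more higher than lower genes held it often too, with 30.8% of heat shock, 24% of oil mobilisation and 22.7% of DNA replication promoters. Calvin cycle and photorespiration promoters held it in 17.2%, and chlorophyll and heme synthesis promoters in 4.76%.

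The Calvin cycle and photorespiration list had 28 of 29 measured genes lower and 1 higher, with a median of -1.90 on the log2 scale. CP12-2, a small regulator that binds a pair of Calvin cycle enzymes, fell from 785 to 84.0 FPKM (log2 ratio -3.21 ± 0.15), and RCA, the activase of Rubisco, from 4029.6 to 564 FPKM (log2 ratio -2.83 ± 0.30). The photorespiratory aminotransferase genes AGT and GGT1 had log2 ratios of -2.68 ± 0.17 and -2.53 ± 0.17. The exception was the catalase gene CAT2, which rose from 588 to 810.0 FPKM (log2 ratio 0.46 ± 0.19, q = 0.0345) and lost its call when the ratios were recentred at the reference genes. The RBCS1A row was marked as having too many reads and is not measured.

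Chlorophyll and heme synthesis genes were lower in 17 of 21 cases and higher in 1. GUN5, a subunit of the magnesium chelatase, fell from 209 to 70.1 FPKM (log2 ratio -1.56 ± 0.17). The 1 higher gene was PORA, the protochlorophyllide reductase of seedlings in the dark, which rose from 19.2 to 54.6 FPKM (log2 ratio 1.46 ± 0.14). Of 19 light and greening regulators, 9 were lower and 2 higher. The greening factor gene GLK2 fell from 121 to 43.5 FPKM (log2 ratio -1.46 ± 0.14) and the blue light receptor gene CRY1 2.09-fold (log2 ratio -1.03 ± 0.14). PHYA, the far-red receptor that accumulates in the dark, and PIF1, a repressor of germination and greening, rose with log2 ratios of 0.65 ± 0.15 and 0.58 ± 0.14.

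All 22 measured nuclear genes for plastid ribosomal proteins were lower, by less than the photosystem genes: their log2 ratios ran from -1.01 to -0.45 with a median of -0.66. GHS1 fell from 618 to 305 FPKM (log2 ratio -1.01 ± 0.15) and RPS1 from 404 to 234 FPKM (log2 ratio -0.79 ± 0.16).

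**Figure D3:**
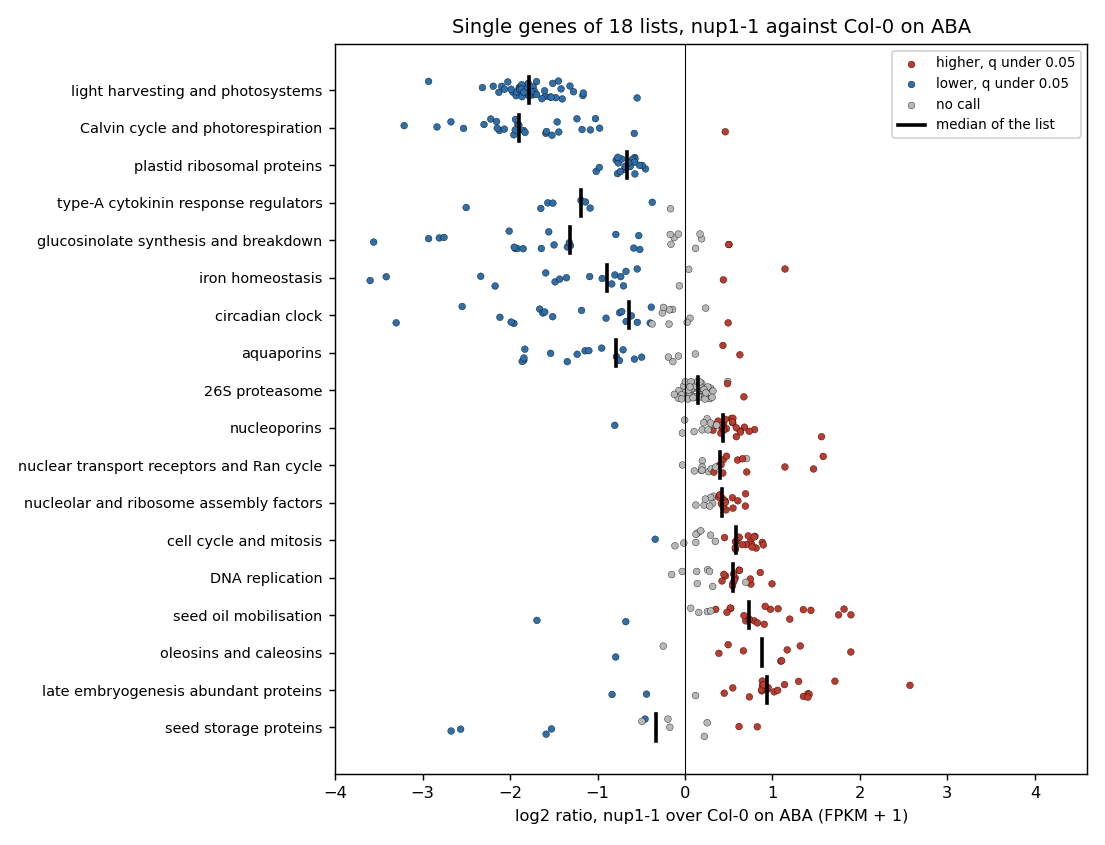
Log2 ratio of nup1-1 over Col-0 on ABA for each measured gene of 18 lists, red where higher, blue where lower at q under 0.05, grey without a call; black bars are list medians. Photosystem genes centre on -1.78, plastid ribosomal genes on -0.66, proteasome genes on 0.15 and LEA genes on 0.94.

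Several lists for growth and the nucleus held more higher than lower genes, with small differences. Of 27 cell cycle and mitosis genes, 18 were higher and 1 lower (21 and 0 under equal FPKM sums), with a median log2 ratio of 0.58 and none changed 2-fold. The kinase gene CDKB1;1 rose from 15.5 to 29.8 FPKM (log2 ratio 0.90 ± 0.15). Of 22 DNA replication genes, 14 were higher and none lower, with a median of 0.55; ICU2, the catalytic subunit of DNA polymerase alpha, rose from 5.21 to 11.4 FPKM (log2 ratio 0.99 ± 0.13). Of 21 nucleolar and ribosome assembly genes, 14 were higher and none lower, with a median of 0.43, and BOP1 stood at 38.4 and 62.5 FPKM (log2 ratio 0.69 ± 0.14). Cytosolic ribosomal protein genes had a median of 0.29, and 5 of 31 were higher (16.1%, near the 15.8% of all genes), such as RPS5B (log2 ratio 0.57 ± 0.15, q = 0.000515); under equal FPKM sums 23 were. The site II element stood in 52.4% of nucleolar, 58.1% of cytosolic ribosomal and 54.5% of replication promoters, against 16.8% of all. Cell cycle promoters held it in only 7.41% and those of nuclear transport receptors and the Ran cycle in 9.09%. Lists with few calls held it often too, the proteasome genes in 36.7% and the reference genes in 35.7%. The site II element stood in 22.8% of the promoters of genes higher in nup1-1 and in 9.73% of those of genes lower.

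Genes of the nuclear pore were mostly higher. Of 32 measured nucleoporin genes, 21 were higher and 1, NUP1, was lower, with a median log2 ratio of 0.43. NUP98B rose from 2.75 to 10.05 FPKM (log2 ratio 1.56 ± 0.14). NUP88, RAE1 and NUP35 had log2 ratios of 0.80 ± 0.14, 0.73 ± 0.14 and 0.68 ± 0.14. Of 22 genes for transport receptors and the Ran cycle, which gives nuclear transport its direction, 12 were higher and none lower, with a median of 0.40. RAN1, a Ran GTPase gene, rose from 228 to 685 FPKM (log2 ratio 1.58 ± 0.16), and RAN2 from 140.5 to 311 FPKM (log2 ratio 1.14 ± 0.15); the Ran genes are close paralogs. The exportin gene XPO1B rose from 4.93 to 15.4 FPKM (log2 ratio 1.47 ± 0.14).

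Transcript length moved with these counts. Among genes with at least 2500 exon bases, 23.8% were higher and 15.5% lower, and among shorter ones 13.95% were higher and 26.3% lower. Of the nucleoporin genes, 20 reach that length and 14 of these were higher, as were 7 of the 12 shorter ones. Of the replication genes, 9 of 11 long and 5 of 11 shorter ones were higher; of the cell cycle genes, 26 of 27 are shorter and 17 of these were higher. The photosystem, plastid ribosomal and LEA lists hold no gene of that length. Without ABA the medians leaned the same way and further. The median log2 ratio there was -0.38 in genes under 750 exon bases and 0.16 in those of at least 2500. On ABA these medians were -0.04 and 0.11. The calls without ABA leaned mainly on the lower side, with 9.99% and 0.957% lower and 2.17% and 2.73% higher in these classes. The part of length in these counts was not tested. Shares were nearly even over the chromosomes, from 14.6% to 16.7% higher.

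Circadian clock genes were mostly lower. Of 28 clock genes, 18 were lower and 1 higher (16 and 2 under equal FPKM sums), with a median log2 ratio of -0.64. The MYB-like morning genes RVE1, RVE2, RVE8 and RVE7 fell, RVE1 from 19.0 to 1.03 FPKM (log2 ratio -3.30 ± 0.18) and RVE2 from 115 to 18.9 FPKM (log2 ratio -2.55 ± 0.15). BOA, a gene of the evening complex family, was the 1 higher gene (log2 ratio 0.49 ± 0.14, q = 0.00331). The evening element (AAATATCT) stood in 25% of the clock promoters, against 5.01% of all. The labels give no hour of harvest, and its part in the clock values was not tested.

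Lists for cytokinin, auxin, jasmonate and salicylic acid held more lower than higher genes. Of 9 type-A response regulators, early targets of cytokinin that damp its signal, 8 were lower and none higher, with a median of -1.19; ARR6 fell from 22.3 to 3.12 FPKM (log2 ratio -2.50 ± 0.19). Of 26 auxin genes 14 were lower and 1 higher, IAA14 falling 2.91-fold (log2 ratio -1.29 ± 0.16) and the conjugating enzyme gene GH3.3 rising (log2 ratio 0.69 ± 0.15). Of 22 jasmonate genes 11 were lower and 2 higher; the repressor gene JAZ9 fell from 38.3 to 5.22 FPKM (log2 ratio -2.66 ± 0.16) and the synthesis gene AOC2 from 253 to 57.4 FPKM (log2 ratio -2.12 ± 0.15). Of 22 salicylic acid, immunity and WRKY genes 10 were lower and 1 higher, WRKY70 falling from 5.49 to 1.19 FPKM (log2 ratio -1.56 ± 0.20). Gibberellin genes were split, 6 of 28 higher and 6 lower (21.4% each, near the 15.8% and 23.8% of all genes). The DELLA genes RGL2 and RGL3, repressors of germination, rose from 13.7 to 33.6 FPKM (log2 ratio 1.23 ± 0.14) and from 8.54 to 21.7 FPKM (log2 ratio 1.25 ± 0.14). GASA6 fell from 141 to 21.7 FPKM (log2 ratio -2.64 ± 0.16).

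Glucosinolates are the sulfur-rich defence compounds of the cabbage family. Of 28 measured genes of their synthesis and breakdown, 19 were lower and 2 higher, with a median of -1.32. Genes of the methionine-derived branch fell furthest: BCAT4 and MAM1, which lengthen the side chain, went from 33.4 to 3.51 FPKM (log2 ratio -2.93 ± 0.19) and from 37.6 to 4.51 FPKM (log2 ratio -2.81 ± 0.17), and CYP79F1 from 14.04 to 0.277 FPKM. CYP83B1 and SOT16, which serve the tryptophan-derived branch, rose with log2 ratios of 0.50 ± 0.15 and 0.50 ± 0.14 (q = 0.0018 and 0.0018). Phenylpropanoid and flavonoid genes were split, 6 of 23 higher, among them the chalcone synthase gene TT4 (log2 ratio 0.71 ± 0.20, q = 0.0022), and 5 lower, among them 4CL1 (log2 ratio -1.46 ± 0.14). These are 26.1% and 21.7% of that list, against 15.8% and 23.8% of all genes.

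Iron and nitrate genes were mostly lower and sulfur genes were split. Of 20 iron genes, 16 were lower and 2 higher, with a median of -0.89. IRT1, the root iron transporter, fell from 33.2 to 1.83 FPKM (log2 ratio -3.60 ± 0.21) and the iron-deficiency regulator gene BHLH100 from 237 to 46.1 FPKM (log2 ratio -2.33 ± 0.15). The ferritin gene FER2, which stores iron in seeds, rose from 86.6 to 193 FPKM (log2 ratio 1.14 ± 0.15). Of 7 nitrate genes 4 were lower and none higher, GLN2 (plastid glutamine synthetase) falling from 1704 to 561 FPKM (log2 ratio -1.60 ± 0.21). Of 15 sulfur starvation genes 6 were higher and 3 lower, SDI1 rising from 15.1 to 54.2 FPKM (log2 ratio 1.77 ± 0.16) and the sulfate transporter gene SULTR2;1 falling from 30.5 to 12.4 FPKM (log2 ratio -1.23 ± 0.14).

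Water channel and surface lipid genes were mostly lower. Of 21 aquaporin genes 15 were lower and 2 higher; PIP1;5 fell from 140.4 to 38.4 FPKM (log2 ratio -1.84 ± 0.15), while TIP3;1, the tonoplast aquaporin of seeds, had 472 and 638 FPKM (log2 ratio 0.43 ± 0.16, q = 0.025). Of 26 suberin, cutin and wax genes 16 were lower and 3 higher; the suberin gene CYP86A1 fell from 17.3 to 4.08 FPKM (log2 ratio -1.85 ± 0.15) and the wax gene CER1 rose from 31.3 to 75.3 FPKM (log2 ratio 1.24 ± 0.14). Of 34 expansin and xyloglucan enzyme genes 15 were lower and 8 higher, EXPA6 falling (log2 ratio -1.49 ± 0.14) and EXPA3 rising (log2 ratio 1.01 ± 0.15). Heat shock genes had 5 of 13 higher and 2 lower (8 and 2 under equal FPKM sums), the abundant chaperone gene HSC70-1 among the higher (log2 ratio 0.72 ± 0.23, q = 0.00489). Endoplasmic reticulum folding genes had 1 of 13 higher and 2 lower (7.69% and 15.4%), under the 15.8% and 23.8% of all genes. Under equal FPKM sums these counts were 2 and 2.

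Markers of seedling tissues were checked against the label of whole seedlings, and members of the root, vascular, stomatal and trichome lists were measured. Of 13 root hair genes 7 were higher and none lower, EXPA7 rising from 19.6 to 48.9 FPKM (log2 ratio 1.28 ± 0.15). Of 9 vascular genes 7 were lower and none higher, such as XCP1, a protease of xylem cells (log2 ratio -0.91 ± 0.15). Of 12 stomatal genes 6 were lower and 1 higher (6 and 4 under equal FPKM sums), the guard cell factor gene MYB60 falling from 7.86 to 2.60 FPKM (log2 ratio -1.30 ± 0.18). Of 10 genes of root stem cells, endodermis and cap 1 was higher, WOX5 of the root stem cell niche (log2 ratio 1.19 ± 0.19), and 2 were lower (1 and 1 under equal FPKM sums). The last counts as called are 10% and 20% of that list, near the 15.8% and 23.8% of all genes. Trichome markers had 1 of 4 higher and 2 lower (1 and 1 under equal FPKM sums), 25% and 50% of a list of only 4 measured genes. None of 5 shoot meristem genes was called (1 higher under equal FPKM sums), CUC3 coming nearest at a log2 ratio of 0.40 ± 0.18 (q = 0.08). The defining meristem genes WUS and CLV3 were not measured. Of 14 reference genes 2 were higher and 1 lower (5 and 1 under equal FPKM sums), with log2 ratios from -0.63 to 0.49. For the lists above with no higher or no lower member, the count on that side was also 0 at an unadjusted p under 0.05, except that 1 shoot meristem gene was higher and 1 lower there. The part of tissue proportions in the other lists was not tested.

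**Figure D4:**
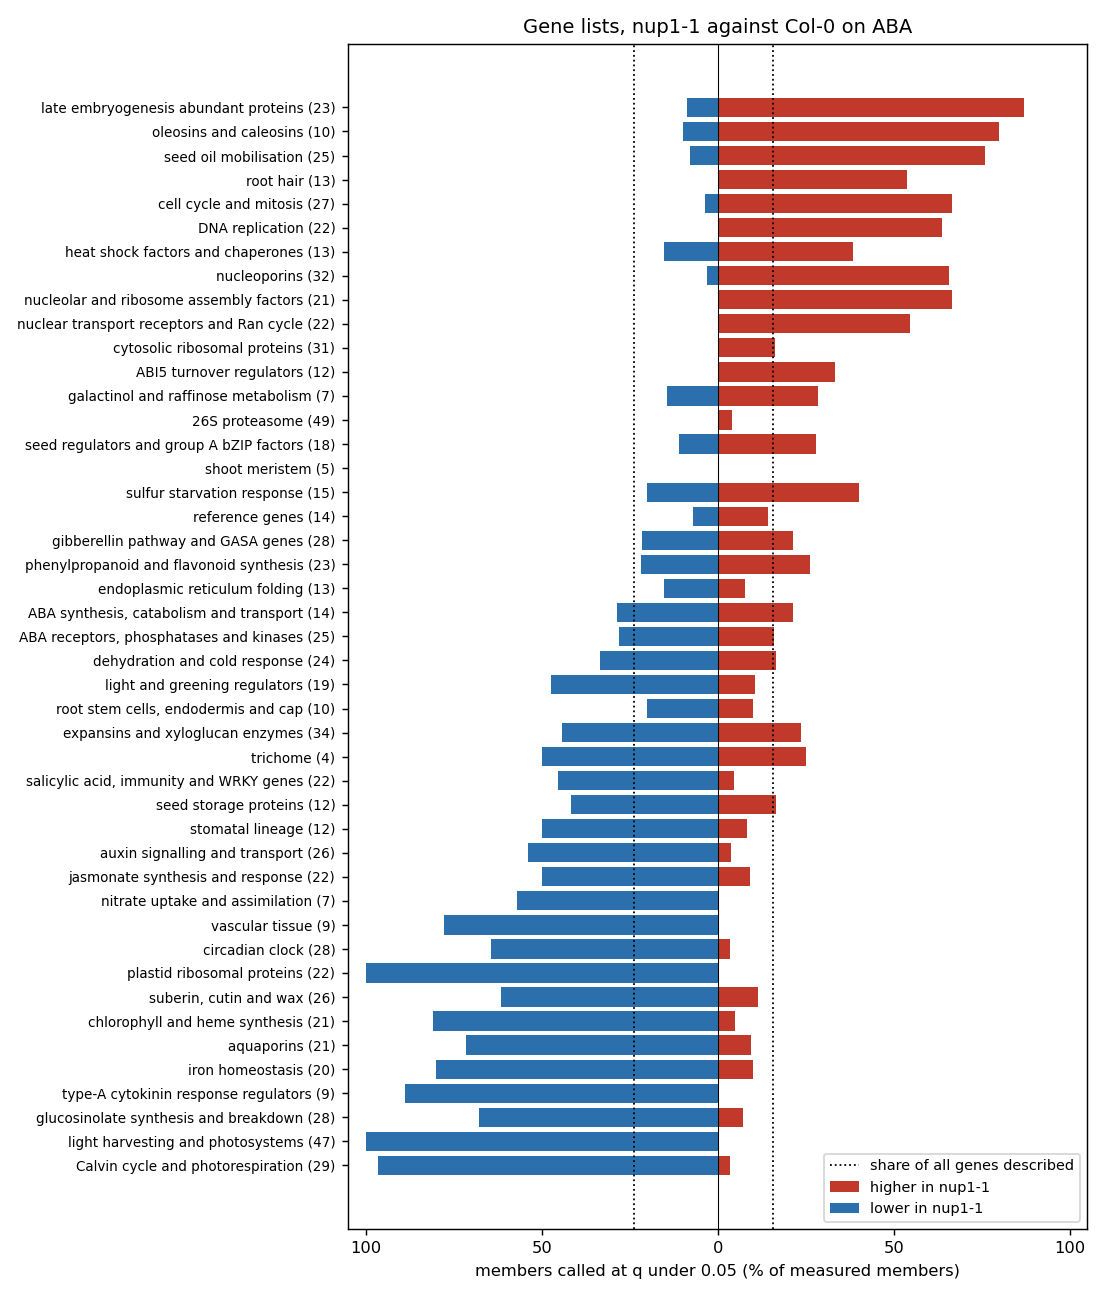
Share of the measured members of each list (number in brackets) higher (red, to the right) and lower (blue, to the left) in nup1-1 on ABA at q under 0.05, in order of the list median. Dotted lines mark the shares among all 19269 genes, 15.8% and 23.8%; the photosystem and plastid ribosomal lists reach 100% on the lower side and LEA genes 87.0% on the higher side.

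The 12 highest called genes reached beyond the lists. LCR67, a small cysteine-rich protein gene of the defensin type, rose from 36.7 to 317 FPKM, 8.65-fold (log2 ratio 3.08 ± 0.17). The defensin-like gene PDF1.4 rose from 6.68 to 37.9 FPKM (log2 ratio 2.34 ± 0.25), the carboxylesterase gene CXE13 from 43.9 to 211 FPKM (log2 ratio 2.24 ± 0.15) and SBP3, a selenium-binding protein gene, from 17.2 to 82.5 FPKM (4.79-fold). PNP-A, a small secreted peptide gene, stood at 0.327 and 6.28 FPKM, and AT1G72570, an AP2-type factor gene, at 0.926 and 8.11 FPKM. The signalling peptide genes CLE40 and RTFL7 were listed at 0 in Col-0 and at 4.71 and 3.59 FPKM in nup1-1 (q = 0.0237 and 0.00555). The other four were M10, ABI4, the rhodanese-like gene AT2G17850 (log2 ratio 2.42 ± 0.31) and AT4G04223 (log2 ratio 2.19 ± 0.24).

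Among the 12 lowest, XTH6, a xyloglucan enzyme of the cell wall, fell from 49.4 to 1 FPKM (log2 ratio -4.66 ± 0.22). CT-BMY, the plastid beta-amylase that breaks down starch at night, fell from 124 to 6.24 FPKM (log2 ratio -4.11 ± 0.17). The defensin-like gene AT3G05730 fell from 561 to 31.9 FPKM (log2 ratio -4.09 ± 0.16), the glycine-rich protein gene AT2G05540 from 96.9 to 5.56 FPKM (log2 ratio -3.90 ± 0.19) and AT3G15450 from 219 to 15.6 FPKM (log2 ratio -3.73 ± 0.36). MLP328 went from 21.8 to 0.519 FPKM (log2 ratio -3.90 ± 0.30) and CYP706A6 from 15.7 to 0.196 FPKM. IRT1 is described above. The microRNA gene MIR157c was listed at 259.9 FPKM in Col-0 and at 0 in nup1-1 (q = 0.00657), and AT3G05727, AT2G29170 and AT3G27027 were also listed at 0 in nup1-1 (q = 0.00657 for AT3G27027). A listed 0 can be a failed estimate, so no fold is given for these.

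The genotype difference on ABA was then set beside that in seedlings without ABA, from a table that shares no library with the first. There, 1299 of 18932 genes (6.86%) differed, 520 of them (2.75%) higher and 779 (4.11%) lower in nup1-1, with a median standard error of 0.24 against 0.16 on ABA, so fewer calls can be made at the same difference. Of the 18511 genes described in both tables, 565 were lower in both, 75.3% of those lower without ABA and 12.5% of those lower on ABA. Higher in both were 95 genes, 19.9% of those higher without ABA and 3.504% of those higher on ABA. A larger number, 215, were higher without ABA and lower on it, 45.1% of those higher without ABA, and 39 went the opposite way. Across genes the log2 ratios of the tables had Pearson r 0.26 and Spearman rho 0.24, as a description of genes that are not independent.

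Whether the genotype difference itself differs with ABA was put to a 2-sided Wald test for each gene, on the log2 FPKM ratios of both tables without pseudocount; its p-value adjusted over 19182 genes is also called q. The genotype difference was higher on ABA for 850 genes (4.43%) and lower for 2282 (11.9%). With the FPKM sums of both groups made equal in each table, the counts were 444 higher and 3185 lower, so the share of higher among those that passed went from 27.1% to 12.2%. Of genes higher on ABA 21.9% also passed this test on the higher side, and of genes lower on ABA 43.4% on the lower side. For most called genes a dependence on ABA was therefore not shown.

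The lists divided into kinds. Without ABA the FPKM sums were 1094610 in Col-0 and 872079 in nup1-1, a log2 ratio of -0.33, against -0.15 on ABA. List medians without ABA are given without scaling to equal sums, which would raise each by the size of that shift. Photosystem genes had a median log2 ratio of -0.67 without ABA, where 6 of 47 were called lower (12.8%, against 4.11% of all genes). In that table the length class of all genes that holds the median of the list, 1204 exon bases, had a median of -0.25. By the Wald test 25 of the 47 had a lower genotype difference on ABA; PSBR differed by -1.71 ± 0.44 (Wald q = 0.00154). Plastid ribosomal genes had a median of -0.74 without ABA, 10 of 22 called lower, and none of the 22 passed the Wald test in either direction. Clock genes, type-A response regulators and iron genes were also lower in part without ABA. Lower there were 11 of 28, 5 of 9 and 8 of 20 of them, at medians of -0.47, -0.77 and -0.45. By the Wald test 8, 3 and 11 of them had a lower genotype difference on ABA, and 0, 0 and 3 a higher one. Few genes of the growth and nucleus lists passed. A higher difference was found for 0 of 21 replication, 2 of 21 nucleolar, 2 of 27 cell cycle and 5 of 31 cytosolic ribosomal genes. The same held for 1 of 32 nucleoporin and 1 of 22 nuclear transport genes, and none in these lists was lower. Under equal FPKM sums only 1 nucleoporin and 1 cytosolic ribosomal gene passed. NUP98B, RAN1 and XPO1B were higher without ABA as well, with log2 ratios of 1.54, 1.09 and 1.31 (each q = 0.00198 in the authors' deposited table), and the Wald differences of -0.08 ± 0.29, 0.49 ± 0.30 and 0.15 ± 0.27 did not pass. NEET, an iron-sulfur protein gene, was also lower in both, at a log2 ratio of -4.19 without ABA and -3.41 ± 0.26 on it.

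Of 28 glucosinolate genes 18 had a lower genotype difference on ABA: their median was -0.09 without ABA and -1.32 on it, and BCAT4 differed by -3.05 ± 0.34 (Wald q = 3.14e-17). Of 25 oil mobilisation genes 9 had a higher and 2 a lower genotype difference on ABA (5 and 2 under equal FPKM sums), MLS by 1.62 ± 0.33 (Wald q = 1.9e-05). LEA genes could be tested in 10 cases, of which 9 were higher on ABA, LEA76 by 2.12 ± 0.48 (Wald q = 0.00015). Without ABA most LEA genes were under the FPKM minimum. LEA76 was close to it there, with 1.78 FPKM for the wild type, 1.08 FPKM for the mutant and no call (q = 0.392 in the authors' deposited table). Part of its Wald difference is therefore a ratio of low values. Auxin genes had 14 of 26 lower on ABA and none higher, and jasmonate and immunity genes 11 of 21 and 11 of 22 lower.

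Some genes turned from higher to lower. COR15A had 22.2 FPKM in Col-0 against 150.3 FPKM in nup1-1 without ABA (log2 ratio 2.70) and 208 FPKM against 63.1 FPKM on ABA, a Wald difference of -4.48 ± 0.37 (Wald q = 9.97e-31). COR15B, NAC055 and WRKY70 did likewise, with Wald differences of -4.27 ± 0.37, -4.37 ± 0.37 and -3.69 ± 0.39. Sulfur starvation genes were higher without ABA in 9 of 15 cases, at a median of 0.93. On ABA the genotype difference was lower for 11 of 15, LSU3 by -2.21 ± 0.36 (Wald q = 3.43e-08). This list did not turn as a whole, with 6 higher and 3 lower on ABA. LSU3 stayed higher in nup1-1 on ABA, at 79.0 FPKM against 49.4 FPKM in Col-0 (q = 0.00295 in the authors' deposited table). CAT2 turned from lower to higher, with 528 and 136 FPKM without ABA (log2 ratio -1.96) and a Wald difference of 2.42 ± 0.33 (Wald q = 8.65e-12). For ABI5 the difference of 0.82 ± 0.34 did not pass (Wald q = 0.0811), and for NUP1 that of -0.42 ± 0.27 did not (Wald q = 0.345).

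**Figure D5:**
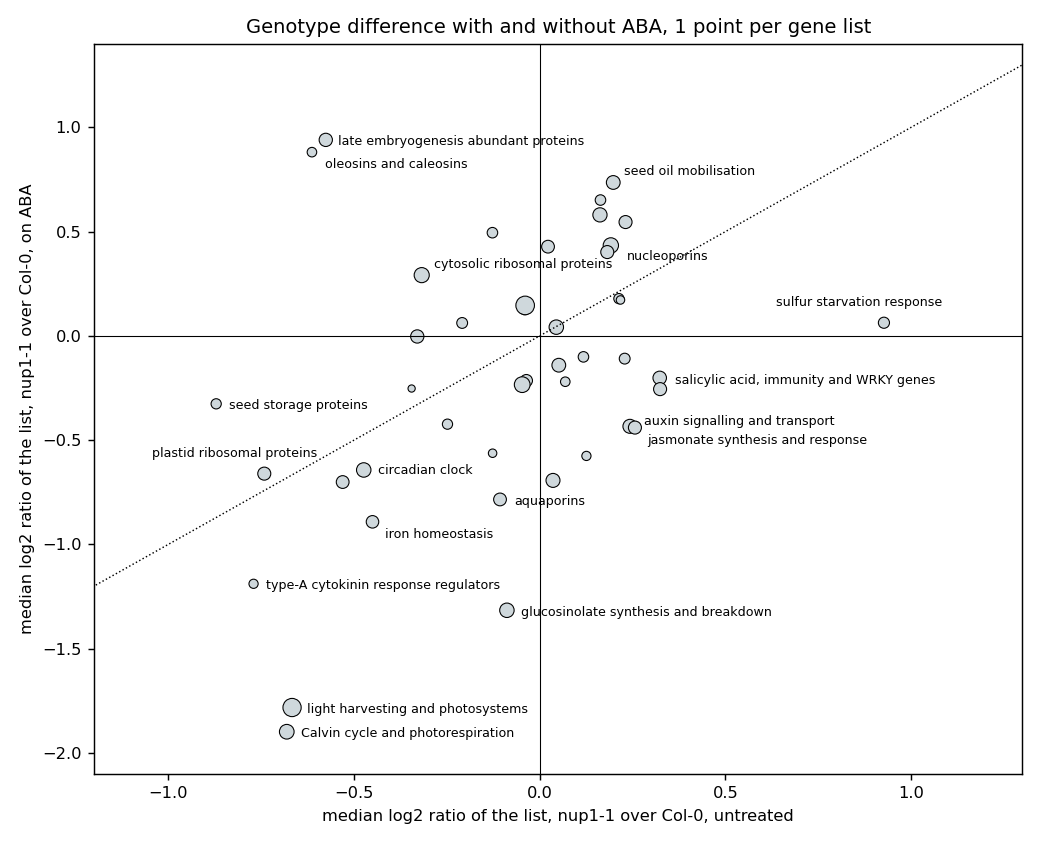
Median log2 ratio of nup1-1 over Col-0 on ABA against that without ABA, 1 point per gene list with point size by number of measured genes; each median is over the members measured in its own table, and the dotted line marks equal values. LEA genes lie at -0.58 and 0.94, glucosinolate genes at -0.09 and -1.32, plastid ribosomal genes near the dotted line at -0.74 and -0.66. The LEA value without ABA is over 9 measured genes, 1 of them called lower, and that on ABA over 23.

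At the FPKM minimum itself, AT1G23465 (0.966 and 1.00 FPKM) and AT1G31240 (1.00 and 0.743 FPKM) were the nearest genes inside, and AT3G13770 (0.711 and 1 FPKM) and AT5G59070 (0.999 and 0.739 FPKM) the nearest outside. None of them was called.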

How the data were processed

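RNA of whole seedlings was sequenced. Per the submitters' processing notes FastQC, Trimmomatic, TopHat and the build TAIR10 were used (no version, and no name of the program behind the tables, is given in the sources used here). For each gene the authors deposited 1 FPKM value per group, a p-value, a q-value and a test statistic (a score); the q-values are the p-values adjusted after Benjamini and Hochberg over tested genes. Genes marked as tested and at 1 FPKM or more in either group were kept, 263 of them rows that join gene models, which were left out of the lists. Log2 ratios with a pseudocount of 1 were recomputed, which understates changes of low genes. Standard errors are the log2 ratio over the statistic times 1.74, a factor fitted to the deposited p; 337 genes have none, 293 of them with a group under 0.5 FPKM and 44 whose statistic and p-value did not match. The Wald test rests on errors of the same kind for the ratio without pseudocount. It did not leave out the genes without a printed error, such as CYP706A6, whose Wald values are less certain. Python 3.11.15, pandas 2.3.3, NumPy 2.4.6 and SciPy 1.17.1 were used. Promoters were read from RefSeq's TAIR10.1 assembly by locus tag. The genes and lists were chosen with earlier results of these data known. Named are NUP1, ABI5, the 12 highest and 12 lowest called genes, up to 4 called members per list in the main direction and 2 in the other (by size of the log2 ratio), and the genes nearest the FPKM minimum; DRT112, whose promoter is shown, was chosen by its motifs. Alternatives covered the q threshold, a fold minimum, the FPKM filter, the pseudocount and the scaling.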

Additional observations from a re-analysis of the deposited data

Results flagged for a closer look

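The genotype difference departed from that without ABA, by the 2-sided Wald test adjusted over 19182 genes, for 850 genes on the higher and 2282 on the lower side. Of the 2 subject genes and the 24 genes with the highest and lowest log2 ratios, 15 had a Wald value and 12 of these passed; the other 11 were listed at 0 in a group or not marked as tested without ABA. On the higher side were LCR67, with a difference of 2.92 on the log2 scale, PDF1.4 with 3.25, CXE13 with 3.41 and SBP3 with 2.64. CXE13 was lower in nup1-1 without ABA (log2 ratio -0.86, q = 0.0175 in the authors' deposited table) and higher on it. On the lower side were XTH6 with -4.46, CT-BMY with -3.02, AT3G05730 with -3.51, MLP328 with -5.61, AT2G05540 with -2.27, CYP706A6 with -5.14, AT3G15450 with -5.20 and IRT1 with -3.44. AT3G15450 was higher in nup1-1 without ABA (log2 ratio 1.38, q = 0.00198 in the authors' deposited table) and lower on it.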

How the results depend on the processing

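At q under 0.01, 2011 genes were higher; with a 2-fold minimum 317 were higher and 1535 lower; under equal FPKM sums 5184 were higher, and the split of the calls turned from 39.9% to 58.4% higher. Overlaps with the untreated comparison at q under 0.01 were 45 higher in both, 329 lower in both, 15 higher on ABA and lower untreated, and 121 the opposite. The cause was not tested beyond the settings' own construction. The Wald counts ran from 803 to 917 higher and from 1903 to 2320 lower, except under equal sums (444 and 3185), a setting added after seeing the data. None of 239 named genes changed sign as a called gene under a pseudocount of 0.1 or the 3 recentrings. Calls were lost for 4 when recentred at the reference genes (BZIP60, TIP3;1, UBQ5 and CAT2) and for 6 under equal sums (CASP1, M17, ERDJ3B, CYP707A3, TRY and CYCD3;2), where CUC3 gained one. Medians of 5 lists near 0 changed sign under a recentring, those of ABA receptor and signalling, ABA synthesis, endoplasmic reticulum folding, gibberellin and phenylpropanoid genes. Equal sums, for single lists chosen after seeing the data, moved list counts most: proteasome 19 higher, cytosolic ribosomal proteins 23 higher; photosystems stayed at 47 lower. No paired analysis was possible because the tables hold 1 value per group, and for the same reason no replicate could be left out. Depth per library is unknown, so no counting interval is given.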

Other observations

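Gene families grouped by symbol alone, 54 of them with at least 15 measured members, were looked at after their values were seen and without a test, beside 15.8% higher and 23.8% lower among all genes. Those with the greatest shares on each side are given, and the most numerous family. The CRK family of cysteine-rich receptor-like kinases had 11 of 17 lower in nup1-1 on ABA and 0 higher. Tau-class glutathione transferase genes (GSTU) had 13 of 23 lower and 1 higher, arabinogalactan protein genes (AGP) 15 of 26 lower and 4 higher, and beta-glucosidase genes (BGLU) 16 of 27 lower and 7 higher. Cytochrome P450 genes (CYP), the most numerous with 138 measured, had 70 lower and 22 higher. On the other side, genes with symbols that begin with RAD had 7 of 16 higher and 0 lower, those with GRF 8 of 19 higher and 2 lower, the expansins (EXPA) 7 of 18 higher and 7 lower, and those with HSP 8 of 21 higher and 2 lower.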
